A study of Homo sapiens with 8 samples.

Results

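Neurofilament, tau and microtubule-associated protein transcripts were measured in human dopaminergic-type neurons after 8 h of mitochondrial inhibition. The 9 genes are the neurofilament subunits NEFL, NEFM, NEFH and INA, the related filament gene PRPH, tau (MAPT), and the MAP genes MAP1A, MAP1B and MAP2. They were chosen by name out of 62826 genes in the deposited gene tables, with earlier results of these data known. All 9 were among the 19785 genes with enough reads to be tested. All cells were LUHMES cells of wild-type genotype, a conditionally immortalised human mesencephalic line that stops dividing and forms neurons when its transgene is shut off with tetracycline. Every culture was differentiated for 6 days in medium that held tetracycline (1 µg/mL), GDNF (2 ng/mL) and dbcAMP (1 mM). The 4 treated libraries came from cells given antimycin A at 25 µM, which blocks respiratory complex III, and oligomycin at 10 µM, which blocks the mitochondrial ATP synthase. The 4 vehicle libraries came from cells given DMSO. The series text gives 4 independent batches per group and 4 technical replicates per batch, and the tables hold 1 library per batch, numbered 2 to 5 in each group. All cells descend from one line, so the spread is between cultures and not between donors.

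Neurofilaments are the intermediate filaments of axons. NEFL can build a filament core, NEFM and NEFH carry long phosphorylated tails that extend from the filament, alpha-internexin (INA) co-assembles with them in central neurons, and peripherin (PRPH) does so mainly in peripheral neurons. Tau and MAP2 bind along microtubules through short repeats near the C terminus, tau mostly in axons and MAP2 mostly in dendrites and cell bodies, and MAP1A and MAP1B are a separate family whose precursors are cut into heavy and light chains.

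Tau and MAP2 differ in which repeats a transcript encodes. Inclusion of MAPT exon 10 gives 4-repeat tau and its omission gives 3-repeat tau, while MAP2 has an optional repeat exon at the corresponding place.

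The treated libraries held 93811420 to 109194618 estimated reads and the vehicle libraries 93717712 to 110020746. All 8 neuron markers were detected and tested. Of the dopaminergic markers, SLC6A3, the dopamine transporter, averaged 570 ± 69.6 counts per 1000000 reads (CPM) in treated cells and 589 ± 69.4 CPM in vehicle cells, but LMX1A had no read in any library and 5 of 9 dopaminergic markers stayed below 1 CPM in all 8. GFAP, AQP4, MOG, MAG and the 5 microglial markers were at or near 0. Vehicle replicate 2 stood apart from the other vehicle libraries in several values given below, so results that rest on it are given with and without it. In these bulk samples, fewer cells of a type and less RNA per cell cannot be told apart.

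Of the 9 genes, 5 were lower after treatment (NEFL, NEFH, INA, MAPT and MAP2), 1 was higher (PRPH), and NEFM, MAP1A and MAP1B did not pass the test. The test was edgeR's quasi-likelihood F-test with Benjamini-Hochberg adjustment over all genes tested and a threshold of 0.05. The exposure changed much of the transcriptome. Of all genes tested, 57.9% passed in either direction, 27.7% higher and 30.2% lower, so 6 calls among 9 genes, 66.7%, is near the background share. The median log2 fold change of all genes tested was −0.02. Without vehicle replicate 2, the calls were 4 lower and none higher: MAP2, with a log2 fold change of −0.21 (edgeR, adjusted p = 0.056), and PRPH, with 0.24 (edgeR, adjusted p = 0.0521), no longer passed. In the authors' deposited table, the same 6 genes have a false discovery rate under 0.05, with log2 fold changes from −0.90 for NEFH to 0.25 for PRPH.

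**Figure D1:**
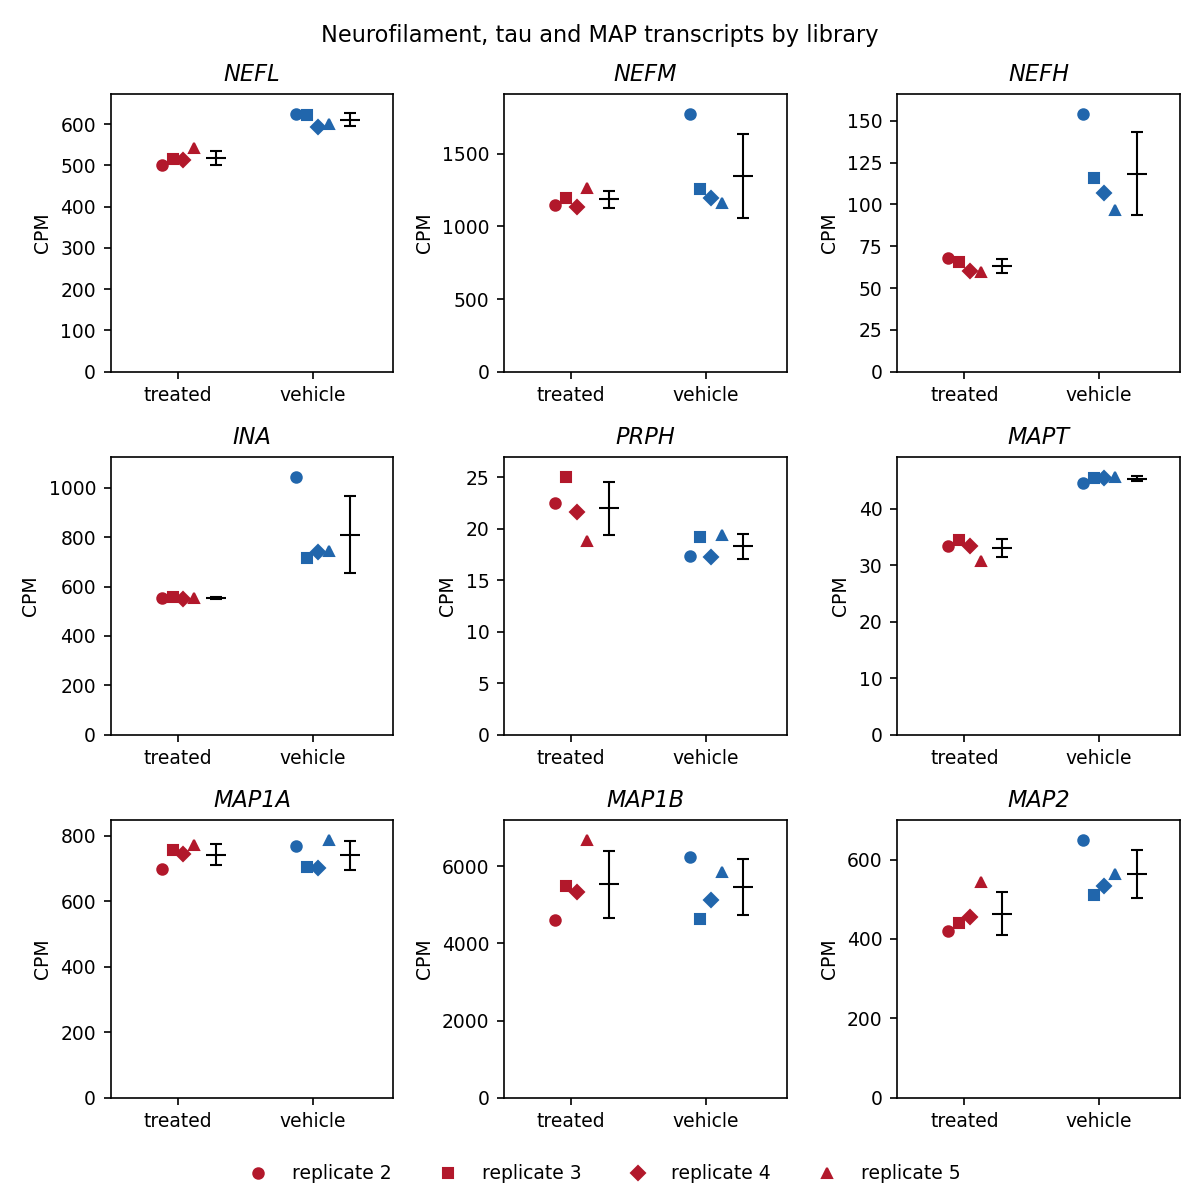
Each panel plots the CPM of one gene on a linear axis from 0, with treated libraries (red) left of vehicle libraries (blue), a marker shape for each replicate number, and black bars for the mean ± SD (n = 4 each). The treated and vehicle points of NEFL, NEFH, INA and MAPT do not overlap, and vehicle replicate 2 lies far above the other vehicle libraries for NEFM and INA. The share of all genes tested whose groups do not overlap is not given here. The separation is therefore not read as particular to these genes.

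The heavy subunit NEFH had the largest change of the 9 genes. Its level was 67.8, 65.5, 60.0 and 59.8 CPM in treated replicates 2 to 5, against 154, 116, 107 and 96.6 CPM in vehicle replicates 2 to 5. Every treated library was below every vehicle library. The means were 63.3 ± 4.04 CPM in treated cells and 118 ± 24.9 CPM in vehicle cells (SD, n = 4 each), a log2 fold change of −0.90 ± 0.129 (SE, edgeR, adjusted p = 2.0e-04), or 46.4% lower. Vehicle replicate 2 was the highest library. Without it the log2 fold change was −0.75 (edgeR, adjusted p = 1.8e-05). NEFH lies on chromosome 22 (hg38, bases 29480230 to 29491390, plus strand) and has 1 annotated transcript.

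Alpha-internexin fell as well. INA gave 555, 556, 550 and 555 CPM in the treated libraries, a spread of 2.74 CPM (SD), against 1044, 715, 739 and 744 CPM in the vehicle libraries. The treated libraries were nearly equal, and all lay below the lowest vehicle library. The means of 554 ± 2.74 CPM in treated cells and 810 ± 156 CPM in vehicle cells gave a log2 fold change of −0.55 ± 0.114 (SE, edgeR, adjusted p = 0.0021), or 31.7% lower. Without vehicle replicate 2 the log2 fold change was −0.41 (edgeR, adjusted p = 2.5e-05). INA lies on chromosome 10 (hg38, bases 103277163 to 103290351, plus strand), also with 1 annotated transcript.

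The light and medium subunits moved less. NEFL, the core subunit, had 500, 515, 512 and 541 CPM in treated cells, against 624, 623, 593 and 600 CPM in vehicle cells. The groups did not overlap, and the fall was the smallest of the 5. The means were 517 ± 17.1 CPM in treated cells and 610 ± 15.9 CPM in vehicle cells, a log2 fold change of −0.24 ± 0.0556 (SE, edgeR, adjusted p = 0.0041), or 15.3% lower. NEFM, its neighbour in the genome, had 1146, 1195, 1137 and 1266 CPM in treated cells, against 1774, 1258, 1196 and 1164 CPM in vehicle cells. Here the groups overlapped, and one vehicle library set the difference. The NEFM log2 fold change was −0.18 ± 0.126 (SE, edgeR, adjusted p = 0.23) with a 95% interval of −0.47 to 0.10, and it was −0.03 (edgeR, adjusted p = 0.69) without vehicle replicate 2. Both genes are on chromosome 8 (hg38), NEFL at bases 24950955 to 24957110 on the minus strand and NEFM at bases 24913012 to 24919098 on the plus strand.

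Peripherin was the one gene called higher. PRPH gave 22.5, 25.0, 21.6 and 18.8 CPM in treated cells, against 17.3, 19.2, 17.2 and 19.4 CPM in vehicle cells. Treated replicate 5 lay within the vehicle range, and the other treated libraries lay above it. The means were 22.0 ± 2.57 CPM in treated cells and 18.3 ± 1.2 CPM in vehicle cells, a log2 fold change of 0.26 ± 0.0938 (SE, edgeR, adjusted p = 0.033), with a 95% interval of 0.06 to 0.47. The direction held in all 16 alternative settings, with log2 fold changes of 0.16 to 0.34, but the call held in 7 of them. PRPH lies on chromosome 12 (hg38, bases 49293252 to 49298686, plus strand), and 2445 of its exon bases are shared with the antisense gene AC125611.4. Antisense genes also overlap exons of NEFM (1706 bases), NEFL (490), NEFH (333) and MAPT (75). The sources used here do not say whether strand was used in counting, so reads of these partners cannot be told apart from those of the genes.

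The make-up of the neurofilament pool was compared on the transcripts per 1000000 (TPM) scale, which divides by length. In treated cells, NEFM had a level of 695 ± 61.9 TPM, INA 344 ± 14.9 TPM, NEFL 282 ± 16.1 TPM, PRPH 33.5 ± 2.79 TPM and NEFH 33.2 ± 1.53 TPM (SD, n = 4). In vehicle cells, NEFM had a level of 803 ± 65.3 TPM, INA 516 ± 31.8 TPM, NEFL 352 ± 40.2 TPM, NEFH 63.2 ± 6.53 TPM and PRPH 30.5 ± 2.72 TPM. NEFM, INA and NEFL thus kept the same order of mean levels in both groups, and PRPH and NEFH differed by less than their SD in treated cells. As shares of the summed TPM of the 5 genes, NEFM made up 49.2 to 51.6% in treated cells, against 48.4, 45.4, 44.4 and 43.7% in vehicle cells. INA made up 25.2, 24.6, 25.3 and 24.0% in treated cells, against 30.4, 27.5, 29.3 and 29.8% in vehicle cells. Neither pair of groups overlapped.

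The NEFM share was 4.58 percentage points higher in treated cells, the INA share fell by 4.45 points and the NEFH share by 1.18 points, from means of 2.39 ± 0.158% in treated cells and 3.58 ± 0.261% in vehicle cells. PRPH made up 2.42 ± 0.251% of the pool in treated cells and 1.73 ± 0.178% in vehicle cells, a difference of 0.689 points. Each of these 4 shares gave p = 0.029 in an exact two-sided permutation test (Benjamini-Hochberg p = 0.036 over 5 shares), which is the smallest p that 70 assignments of the libraries allow. For NEFL, the share was 20.4 ± 0.284% in treated cells and 20.0 ± 2.71% in vehicle cells, a difference of 0.368 points (exact permutation p = 1). Vehicle replicate 2 carried the low NEFL share of 15.9%, beside 21.1 to 21.5% in the other vehicle libraries. Without it the NEFL difference was −0.985 points (exact permutation p = 0.029), and the NEFM, INA and NEFH differences were 5.54, −4.07 and −1.10 points, each with the same p. The PRPH difference was then 0.611 points (exact permutation p = 0.057). As shares of one sum, these values depend on each other.

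**Figure D2:**
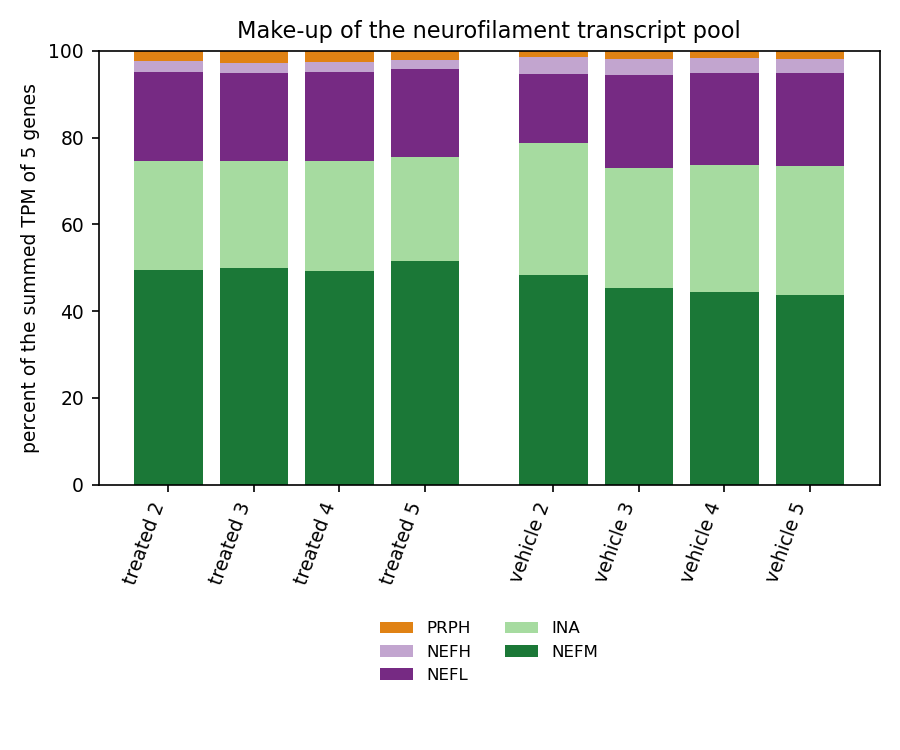
Stacked bars give each gene's percent of the summed TPM of NEFM, INA, NEFL, NEFH and PRPH in the 4 treated libraries (left) and the 4 vehicle libraries (right). The NEFM band covers 49.2 to 51.6% in treated libraries and 43.7 to 48.4% in vehicle libraries, and the INA band is wider in every vehicle library.

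Tau transcripts fell with little spread between libraries. MAPT had 33.4, 34.5, 33.4 and 30.8 CPM in treated cells, against 44.6, 45.5, 45.5 and 45.6 CPM in vehicle cells. The highest treated library was well below the lowest vehicle library. The means of 33.0 ± 1.57 CPM in treated cells and 45.3 ± 0.443 CPM in vehicle cells gave a log2 fold change of −0.46 ± 0.0595 (SE, edgeR, adjusted p = 1.0e-04), or 27.1% lower. All 16 alternative settings gave a call, with log2 fold changes of −0.55 to −0.42. Per length, MAPT had the lowest mean of the 9 genes in both groups, with a level of 19.7 ± 0.566 TPM in treated cells and 28.7 ± 1.05 TPM in vehicle cells. MAPT lies on chromosome 17 (hg38, bases 45894382 to 46028334, plus strand).

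MAP2, the dendritic relative of tau, was called lower with less margin. It had 419, 439, 454 and 544 CPM in treated cells, against 649, 510, 534 and 564 CPM in vehicle cells. Treated replicate 5 lay within the vehicle range, and the other treated libraries lay below it. The means were 464 ± 55.0 CPM in treated cells and 564 ± 60.5 CPM in vehicle cells, a log2 fold change of −0.28 ± 0.100 (SE, edgeR, adjusted p = 0.034), with a 95% interval of −0.50 to −0.06. The call held in 8 of 16 alternative settings, which gave −0.37 to −0.21. The effective length of MAP2 was 4161 to 4517 bases in treated libraries, against 4590 to 4713 bases in vehicle replicates 3 to 5 and 4004 bases in vehicle replicate 2. With these lengths as an offset the log2 fold change was −0.22 (edgeR, adjusted p = 0.11). MAP2 lies on chromosome 2 (hg38, bases 209424058 to 209734118, plus strand).

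MAP1A and MAP1B, which bind microtubules without tau-type repeats, showed no change in total level beyond the spread. MAP1A had 697, 756, 744 and 771 CPM in treated cells, against 768, 703, 702 and 786 CPM in vehicle cells. The groups overlapped throughout, and the log2 fold change was 0.00 ± 0.0651 (SE, edgeR, adjusted p = 0.95), with a 95% interval of −0.14 to 0.15. MAP1B had 4609, 5496, 5334 and 6682 CPM in treated cells, against 6247, 4648, 5117 and 5858 CPM in vehicle cells. The libraries of both groups spread widely and overlapped, and the log2 fold change was 0.02 ± 0.125 (SE, edgeR, adjusted p = 0.92), with a 95% interval of −0.26 to 0.29. The sign of both fold changes turned with scaling to library totals, to −0.09 for MAP1A and −0.08 for MAP1B. Per length, MAP1B had the highest mean level of the 9 genes, at 964 ± 152 TPM in treated cells and 950 ± 144 TPM in vehicle cells. In hg38, MAP1A lies on chromosome 15 (bases 43510958 to 43531620) and MAP1B on chromosome 5 (bases 72107234 to 72209570), both on the plus strand.

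**Figure D3:**
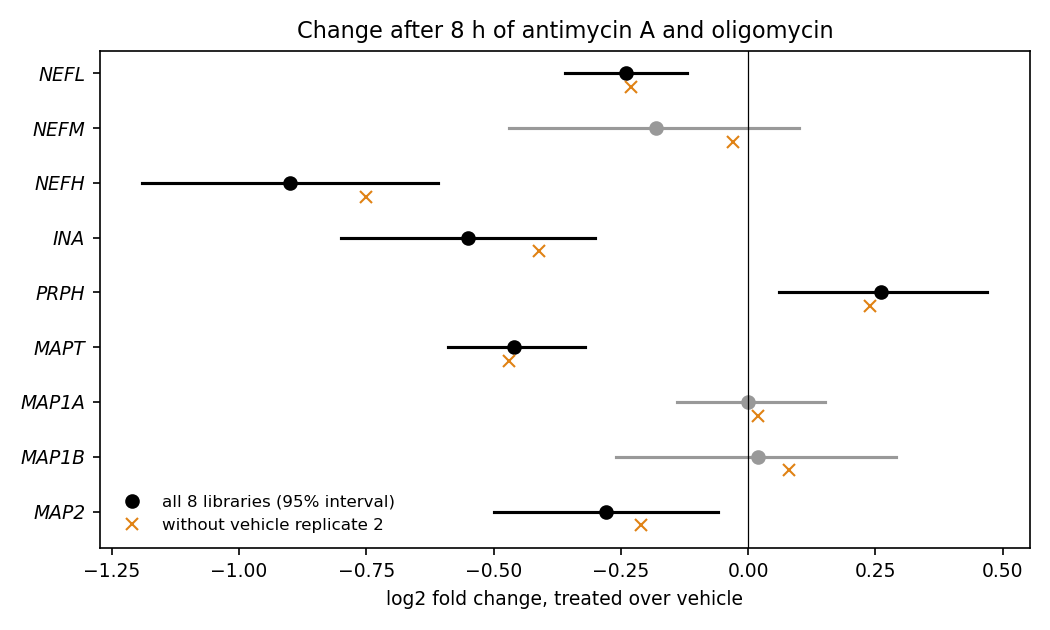
Points give each gene's log2 fold change, treated over vehicle, with the 95% interval from edgeR, black where the adjusted p is under 0.05 and grey otherwise. Orange crosses give the value without vehicle replicate 2, which lies closer to 0 for NEFL, NEFM, NEFH, INA, PRPH and MAP2.

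Within MAP1A, the longer transcript fell relative to the other. Transcript usage was tested with edgeR's diffSpliceDGE, which asks whether a transcript changed relative to the rest of its gene. Of 11746 genes tested, 9.34% passed at a Simes p adjusted over all of them, and among the 7 of the 9 genes with more than 1 transcript counted, MAP1A alone passed (edgeR, adjusted p = 2.9e-04). The longer transcript, MAP1A-202, made up 6.31, 5.54, 5.09 and 4.94% of MAP1A TPM in treated cells, against 9.58, 13.5, 13.4 and 11.9% in vehicle cells. Its share was lower in every treated library. In level, MAP1A-202 had 7.05 ± 0.403 TPM in treated cells and 16.3 ± 3.53 TPM in vehicle cells, while MAP1A-201 had 122 ± 9.85 TPM in treated cells and 118 ± 12.9 TPM in vehicle cells. The log2 change of MAP1A-202 relative to the gene was −0.79 (edgeR, adjusted p = 6.1e-04). The gene passed in all 10 alternatives of this test, with adjusted p values of 2.2e-07 (without vehicle replicate 2) to 0.0083. The exact division of reads between transcripts is an estimate of the authors' quantifier, and its error is not part of the test.

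The MAP1A transcripts start 6667 bases apart and encode different N termini, so the region around each start is shown. MAP1A-202 starts at base 43510958 of chromosome 15 and has 3041 codons. MAP1A-201 starts at base 43517625 and has 2803 codons. The windows cover 250 bases before to 50 bases after each RefSeq start (GRCh38.p14, plus strand), at chr15:43510704-43511003 and chr15:43517358-43517657, with GC boxes (GGGCGG or its complement) in capitals.
MAP1A-202 start region: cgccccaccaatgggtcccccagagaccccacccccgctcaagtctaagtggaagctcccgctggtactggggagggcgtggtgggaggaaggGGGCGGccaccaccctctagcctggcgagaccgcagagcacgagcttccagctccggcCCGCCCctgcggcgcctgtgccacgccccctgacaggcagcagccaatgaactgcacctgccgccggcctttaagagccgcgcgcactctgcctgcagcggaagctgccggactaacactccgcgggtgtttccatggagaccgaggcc
MAP1A-201 start region: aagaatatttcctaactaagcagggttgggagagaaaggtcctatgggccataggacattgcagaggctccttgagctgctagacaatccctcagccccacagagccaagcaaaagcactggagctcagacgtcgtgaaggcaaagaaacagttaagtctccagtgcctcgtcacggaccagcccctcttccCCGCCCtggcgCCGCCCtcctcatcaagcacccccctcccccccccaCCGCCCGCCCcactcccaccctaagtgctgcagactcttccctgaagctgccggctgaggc
The first window, which lies at the start of the falling transcript, holds 2 GC boxes and the second holds 4, of which a pair overlaps. A GC box is present in 45.0% of 35116 promoter windows of the same length. Neither MAP1A window holds TATAAA, found in 11.5% of windows, or TGATGNAA, a C/EBP-ATF type element found in 3.60%, on either strand. A match is a run of letters and was not tested as a binding site.

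For MAPT and MAP2, no form or transcript share passed the test between the groups after adjustment. The smallest possible p is 0.029, and a single share at that p could not pass once adjusted over 6 shares. The test therefore does not show that the shares were unchanged. The exon 10 share, the part of coding MAPT TPM from transcripts that include it, was 55.5, 54.3, 53.2 and 52.7% in treated cells, against 33.8, 53.2, 54.2 and 53.3% in vehicle cells. Vehicle replicate 2 stood far below all others, which lay within 3 points of each other. The means were 53.9 ± 1.21% in treated cells and 48.6 ± 9.88% in vehicle cells, a difference of 5.31 points (exact permutation p = 0.34, Benjamini-Hochberg p = 0.69 over 6 form shares). Without vehicle replicate 2 the other vehicle libraries averaged 53.5 ± 0.529%, which left a difference of 0.380 points (exact permutation p = 0.66). Transcripts with neither exon 2 nor exon 3, which encode tau without N-terminal inserts, made up 90.9 ± 1.38% of coding TPM in treated cells and 90.5 ± 4.51% in vehicle cells. Those annotated with both exons, nearly all MAPT-210, made up 9.15 ± 1.38% in treated cells and 9.53 ± 4.51% in vehicle cells. Exon content was read from the annotated transcripts, and the quantified MAPT-210 differs from its annotated form in length, as given below. Transcripts with exon 2 alone were listed at 0 throughout, but the annotated MAPT-203, which is of this class, was not among the transcripts quantified. That 0 therefore does not show that tau with exon 2 alone was absent. Transcripts with exon 4A or 6, as in large tau of peripheral nerves, made up 0.268 ± 0.195% in treated cells and 0.112 ± 0.0883% in vehicle cells (exact permutation p = 0.26).

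The tau shares rest on how far the annotated transcripts reach. The main transcripts were MAPT-209, with exon 10 and 383 codons, at 46.3 ± 1.20% of MAPT TPM in treated cells and 44.4 ± 8.96% in vehicle cells, and MAPT-202, without it and with 352 codons, at 32.1 ± 1.89% in treated cells and 38.5 ± 13.2% in vehicle cells. MAPT-210, annotated with exons 2 and 3 but not 10, made up 7.65 ± 1.15% in treated cells and 8.60 ± 4.06% in vehicle cells. Its annotated form is 5718 bases long and its quantified form 1353, so the exons of the quantified form may differ and were not checked. MAPT-209 and MAPT-202 have the same length in both. In the deposited tables MAPT-209 is 5345 bases long, MAPT-202 is 1107 and MAPT-210 is 1353, so reads from a long 3′ end could be given to MAPT-209 and not to the other pair. Vehicle replicate 2 held 31.0% MAPT-209 and 58.2% MAPT-202, beside 47.6 to 49.8% and 30.5 to 32.8% in the other vehicle libraries. The effective length of MAPT was 2291 bases in that library and 3102 to 3243 bases in the other vehicle libraries.

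By the quantifier's estimate, most coding MAP2 TPM came from transcripts without the large exon of the projection domain. Long MAP2, which carries the 3726-base exon of the projection domain, made up 0.991, 1.47, 1.77 and 2.96% of coding MAP2 TPM in treated cells, against 1.91, 3.58, 3.28 and 4.78% in vehicle cells. It was lower in each treated library than in the vehicle library of the same number, but the groups overlapped. The difference was −1.59 points (exact permutation p = 0.057, Benjamini-Hochberg p = 0.34 over 6 form shares). MAP2-205, a short form of 471 codons, made up 65.6 ± 1.12% of MAP2 TPM in treated cells and 61.3 ± 8.28% in vehicle cells. MAP2-203, which also has 471 codons, made up 6.48 ± 2.00% in treated cells and 7.11 ± 4.25% in vehicle cells, and MAP2-204, with 106 codons, 15.4 ± 0.744% in treated cells and 13.1 ± 2.22% in vehicle cells. None of the 6 MAPT and MAP2 transcripts with a mean share of at least 5% passed (exact permutation, Benjamini-Hochberg p of 0.86 to 1). Transcripts with the optional MAP2 repeat exon made up 0.604 ± 0.166% of coding TPM in treated cells and 1.41 ± 1.17% in vehicle cells, the highest being 3.17% in vehicle replicate 2. Without vehicle replicate 2, unadjusted exact permutation p values of 0.029 were found for MAP2-204 (3.36 points), MAPT-210 (−2.96) and MAPT-209 (−2.53). Transcripts outside GENCODE release 29, whose exons were not looked up, made up 5.31 ± 1.30% of MAPT TPM and 7.15 ± 0.194% of MAP2 TPM in treated cells, against 7.07 ± 0.672% and 10.6 ± 0.238% in vehicle cells. For MAP2 these values ran from 6.97 to 7.32% in treated libraries and from 10.3 to 10.8% in vehicle libraries, without overlap, while those of MAPT overlapped. The difference was not tested. In the usage test across all genes, MAPT had an adjusted p of 0.24 (edgeR) and MAP2 of 0.52 (edgeR). The MAPT value was 2.2e-08 (edgeR, adjusted p) without vehicle replicate 5, and 0.044 with the replicate number as a block. Without vehicle replicate 5, 5 of its 6 transcripts were counted. The same number was counted without treated replicate 2, treated replicate 3 or vehicle replicate 3, which gave 0.20, 0.19 and 0.22 (edgeR, adjusted p). MAPT-211, a transcript without coding sequence, had 1.30, 1.24, 0.613 and 1.67 TPM in treated replicates 2 to 5. Among vehicle libraries it had TPM in replicate 5 alone, at 1.05. Its part in the MAPT value was not tested.

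**Figure D4:**
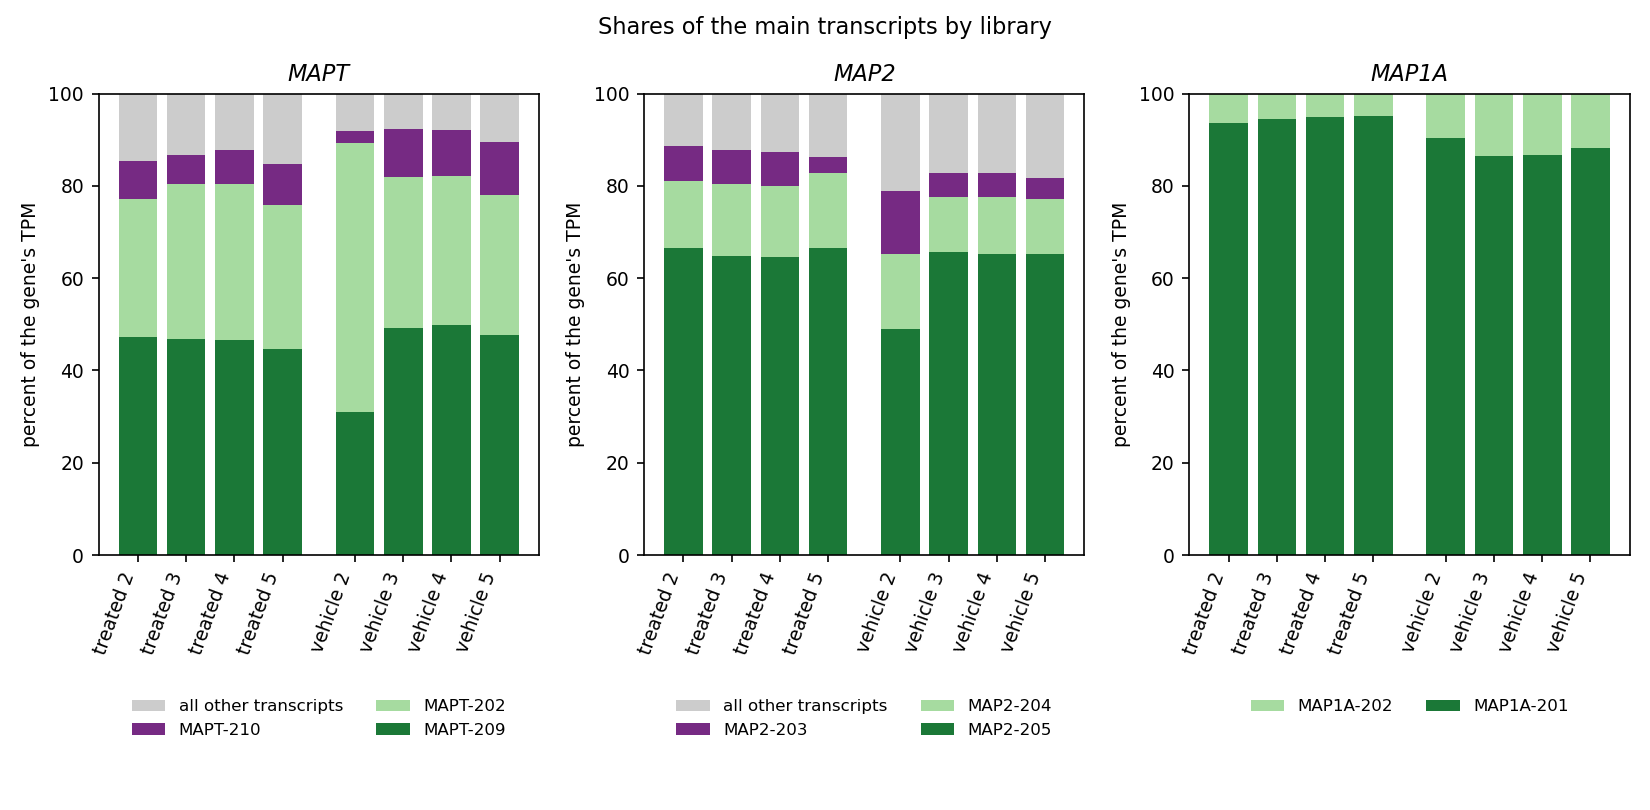
Stacked bars give the percent of each gene's TPM from its main transcripts, with treated libraries left of vehicle libraries and the remaining transcripts in grey. Vehicle replicate 2 differs from all other libraries for MAPT and MAP2, and the MAP1A-202 band covers 4.94 to 6.31% in treated libraries and 9.58 to 13.5% in vehicle libraries.

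Related genes were counted in 7 lists, which held 129 genes, of which 125 were tested. Of these, 38 were higher and 36 lower after treatment, together 59.2%, near the 57.9% of all genes tested. Other intermediate filaments and linkers had 1 higher and 2 lower of 11 tested, with a median log2 fold change of 0.08, and 1 to 3 higher and 2 or 3 lower under the other scalings and the length offset. NES, the progenitor filament nestin, rose to 140 ± 7.37 CPM in treated cells, against 108 ± 5.41 CPM in vehicle cells (log2 fold change 0.38, edgeR, adjusted p = 5.1e-04). The lamin gene LMNB1 fell (−0.74, edgeR, adjusted p = 2.4e-06), as did SYNM, the linker filament synemin (−0.60, edgeR, adjusted p = 4.9e-05). GFAP, KRT8 and KRT18 had too few reads to be tested.

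Other microtubule-associated proteins had 6 higher and 11 lower of 30, with a median of −0.06. The doublecortin-like kinase DCLK1 fell to 35.7 ± 2.43 CPM in treated cells, against 67.3 ± 2.52 CPM in vehicle cells (−0.91, edgeR, adjusted p = 2.2e-06), and DCLK2 fell by 0.42 on the log2 scale. MAP7D2, which recruits kinesin to axonal microtubules, had the largest fall of the list, to 5.24 ± 0.309 CPM in treated cells, against 13.5 ± 2.32 CPM in vehicle cells (−1.36, edgeR, adjusted p = 7.2e-06). DCLK3, MAP4, the MAP of many cell types, and CLASP2, a plus-end protein, rose, with log2 fold changes of 0.73, 0.27 and 0.30. DCLK3 was close to the floor, at 0.946 ± 0.0639 CPM in treated cells and 0.573 ± 0.127 CPM in vehicle cells. The CLASP2 call was lost with a length offset, where the value was 0.15. Microtubule severing enzymes had 1 higher and 4 lower of 8, with a median of −0.40, and 0 to 2 higher and 4 or 5 lower under the other scalings and the length offset. FIGNL2 (−0.85), KATNAL1 (−0.61) and FIGNL1 (−0.59) fell, and FIGN, fidgetin, rose by 0.23, a call lost in 9 of 16 alternative settings.

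Tau and MAP kinases had 13 higher and 6 lower of 28, with a median of 0.18, and 9 higher and 7 lower with library totals. CDK5R1, the p35 activator of CDK5, fell to 61.3 ± 2.14 CPM in treated cells, against 94.4 ± 5.83 CPM in vehicle cells (−0.62, edgeR, adjusted p = 1.8e-05). DYRK2, a kinase that can prime substrates for GSK3, and CAMK2G also fell, by 0.46 and 0.27 on the log2 scale. MARK3, which phosphorylates tau within the repeats, rose to 142 ± 3.47 CPM in treated cells, against 99.1 ± 2.58 CPM in vehicle cells (0.52, edgeR, adjusted p = 2.1e-05). The JNK genes MAPK9 and MAPK10 rose, with log2 fold changes of 0.49 and 0.35. The JNK gene MAPK8, with a higher level, did not pass (−0.06, edgeR, adjusted p = 0.45). It averaged 242 ± 17.4 CPM in treated cells and 252 ± 7.28 CPM in vehicle cells. Phosphatases and the isomerase had 6 higher and 3 lower of 17, with a median of 0.16. Under the other scalings and the length offset they had 4 to 8 higher and 3 lower. The calcineurin subunit PPP3R1 (0.56), the PP2A catalytic subunit PPP2CB (0.53) and the PP2A regulatory subunit PPP2R5C (0.41) rose. A PP2A scaffold gene, PPP2R1B (−0.58), PPP5C (−0.29) and the PP2A methylesterase PPME1 (−0.21) fell. The other PP2A scaffold gene, PPP2R1A, did not pass (−0.02, edgeR, adjusted p = 0.93). It averaged 247 CPM in treated cells and 250 CPM in vehicle cells, beside 75.0 and 112 CPM for PPP2R1B. Protein phosphorylation was not measured.

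Genes of filament and tau turnover had 5 higher and 4 lower of 13, with a median of −0.07, and 4 higher and 6 lower with library totals. HSPB1, a small heat shock protein, rose to 42.9 ± 7.67 CPM in treated cells, against 11.6 ± 2.31 CPM in vehicle cells (1.89, edgeR, adjusted p = 6.5e-06). The tau-binding immunophilin FKBP4 rose to 101 ± 3.78 CPM in treated cells, against 76.8 ± 5.30 CPM in vehicle cells (0.40, edgeR, adjusted p = 4.6e-04). TRIM2, a ligase that targets NEFL in mice, fell (−0.57, edgeR, adjusted p = 2.5e-05), as did CASP6 (−1.06), a caspase that cuts tau, and FKBP5 (−0.76). Splicing factors known to act on MAPT exon 10 had 6 higher and 6 lower of 18, with a median of −0.06. That split moved with the scaling, to 3 higher and 7 lower with library totals and 4 higher and 2 lower with a length offset. PTBP2 (0.44), SRSF4 (0.39) and SRSF1 (0.35) rose, and RBM4 (−0.49), SRSF7 (−0.28) and SRSF3 (−0.23) fell. The PTBP2, SRSF7 and SRSF3 calls were lost with a length offset.

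**Figure D5:**
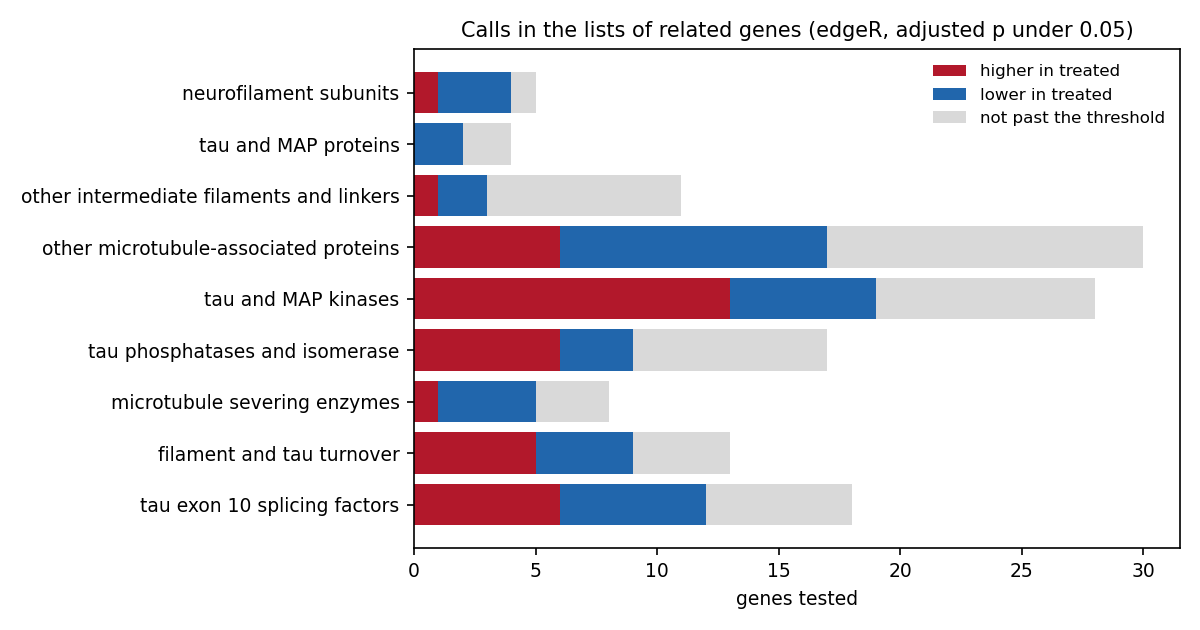
Bars count the tested genes of each list, red for those higher in treated cells, blue for those lower and grey for those that did not pass (edgeR, adjusted p under 0.05). Of the other microtubule-associated proteins, 6 were higher and 11 lower, and of the kinases, 13 were higher and 6 lower.

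Markers of other cell states moved over the same libraries. The 8 neuron markers summed to 3985 to 4518 CPM in treated cells and 4753 to 4917 CPM in vehicle cells, with 4 higher and 2 lower. TUBB3, neuronal tubulin, averaged 1441 ± 195 CPM in treated cells and 1899 ± 279 CPM in vehicle cells, whereas RBFOX3, the NeuN antigen, averaged 136 ± 15.4 CPM in treated cells and 68.8 ± 1.22 CPM in vehicle cells. The 9 dopaminergic markers summed to 508 to 677 CPM in treated cells and 569 to 712 CPM in vehicle cells, with 1 higher and 2 lower. TH, tyrosine hydroxylase, rose to 15.4 ± 3.10 CPM in treated cells, against 7.48 ± 1.34 CPM in vehicle cells (log2 fold change 1.04, edgeR, adjusted p = 3.9e-04), while the homeobox gene EN1 (−0.80, edgeR, adjusted p = 0.005) and DDC (−1.05, edgeR, adjusted p = 0.0013), which stayed below 1 CPM, fell. The 7 proliferation and progenitor markers summed to 191 to 201 CPM in treated cells and 261 to 356 CPM in vehicle cells, with 2 higher and 5 lower. The 5 astrocyte markers summed to 35.4 to 37.2 CPM in treated cells and 15.2 to 16.3 CPM in vehicle cells, with 1 higher and 1 lower. SLC1A3 averaged 28.8 ± 0.762 CPM in treated cells and 3.0 ± 0.51 CPM in vehicle cells, and SLC1A2 averaged 7.38 ± 0.688 CPM in treated cells and 12.4 ± 0.234 CPM in vehicle cells. The 5 oligodendrocyte markers summed to 10.7 to 15.3 CPM in treated cells and 16.7 to 23.2 CPM in vehicle cells, with 1 lower. The part of these shifts in the results above was not tested.

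The genes whose profile over the 8 libraries was most like that of 3 of the 9 genes were found among 11408 genes with a mean of at least 5 CPM, by the root mean square difference of centred log2 CPM. For NEFL these included SGCB (0.024) and CCDC25 (0.028). MAPT was closest to ZMYM3 (0.027), PHKA2 (0.029) and GALNT16 (0.035). For MAP2 they were XPR1 (0.024), CASP8AP2 (0.031) and ZBTB33 (0.037). None belongs to the lists above, and the measure is a description.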

How the data were processed

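Estimated counts, effective lengths and TPM per gene and per transcript were deposited by the authors for each library, per the file headers. No source used here gives the quantifier, and HISAT2, SAMtools, StringTie and hg38 are named, without roles, per the submitters' processing notes. The log2 fold changes, p-values and false discovery rates credited to the authors are from the authors' deposited table. IDs were named from the deposited files and GENCODE release 29, which holds 202856 of 253512 transcripts. Estimated counts were rounded and fitted with edgeR 4.0.16 (R 4.3.3) without covariates, with TMM and filterByExpr, after tests on simulated data. CPM are on TMM-scaled totals. DESeq2 1.42.0 and limma 3.58.1 (prior count 2) were alternatives. The usage test kept transcripts that reached 10 reads in 4 or more libraries. Intervals cover the spread between these 8 libraries. Replicate numbers were not used to pair the samples in the main fit, since the labels do not say that a number is a shared batch. Same-numbered libraries correlated at −0.08 to 0.032 in their deviations from the group means, which cannot exclude a shared batch. All 9 genes are named, and from each list up to 3 higher and 3 lower called genes with the smallest adjusted p. RBFOX3, TUBB3, SLC1A2, SLC1A3, SLC6A3, TH, DDC, EN1 and MAP1A-202 were singled out after their values were seen. The genes and lists were chosen with earlier results of these data known. Some items that these rules name are not reported here.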

Additional observations from a re-analysis of the deposited data

Results flagged for a closer look

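Among 52 groups of 4 values checked, 11 held a library farther from the rest than Dixon's 95% critical value allows. Chance flags about 1 group in 20, but many groups are shares of the same gene or the same sum and depend on each other. Of the 11, 10 were vehicle replicate 2. That library had the highest NEFM level, 1774 CPM beside 1164 to 1258 CPM in the other vehicle libraries, and the highest INA level, 1044 CPM beside 715 to 744 CPM. Its MAPT level of 44.6 CPM was just below the 45.5 to 45.6 CPM of the others. Its NEFL share of the neurofilament pool was 15.9%, beside 21.1 to 21.5%.

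The transcript shares of vehicle replicate 2 stood apart as well. The MAPT exon 10 share was 33.8%, beside 53.2 to 54.2% in the other vehicle libraries, with MAPT-202 at 58.2%, beside 30.5 to 32.8%, and MAPT-209 at 31.0%, beside 47.6 to 49.8%. MAP2-204 was at 16.4%, beside 11.8 to 12.3%, MAP2-203 at 13.5%, beside 4.60 to 5.18%, and MAP2-205 at 48.9%, beside 65.3 to 65.7%. The TMM factor of this library was 0.969, beside 1.045 to 1.073 for the other vehicle libraries and 0.960 to 0.973 for the treated ones. In the treated group, replicate 5 had a MAP2-203 share of 3.49%, beside 7.34 to 7.56% in the other treated libraries.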

How the results depend on the processing

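NEFL, NEFH, INA and MAPT were called lower, and MAP1A and MAP1B were not called, in all 16 alternatives. The count of members called higher fell to 0, from 1, with library totals, without the low-count filter, with a length offset, with the replicate block and in 5 of 8 fits leaving out a library (0 to 1). NEFM passed with library totals alone (−0.27, edgeR, adjusted p = 0.0498). That scaling moved the median of all genes to −0.12 and the split of calls to 4280 higher and 7023 lower, against 5484 higher and 5977 lower. MAP2 lost its call with DESeq2 size factors, the length offset, the replicate block and in 5 of 8 fits leaving out a library. The replicate block gave 4 member calls, against 6, and 10764 calls over all genes, against 11461, and it gave 2 usage calls among the members, as did leaving out vehicle replicate 5, against 1 (range 1 to 2). MAPT was the added usage call. In same-numbered pairs the composition differences were 4.58 (NEFM), −1.18 (NEFH), −4.45 (INA) and 0.689 points (PRPH), with an exact sign-flip p of 0.12, the smallest possible. Leaving out each library gave −0.985 to 0.874 points for NEFL, 3.98 to 5.54 for NEFM, −1.30 to −1.10 for NEFH, −5.02 to −4.07 for INA and 0.588 to 0.791 for PRPH. The NEFM composition p was 0.057 without any one treated library, and that of PRPH without vehicle replicate 2 or 4. The MAP2-205 share differed by 9.14 points (exact permutation p = 0.029) in shares of reads. The cause was not tested. Shares of rare transcripts are limited by few reads, 50 to 226 for MAPT-210.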
